A study of Homo sapiens with 2 samples.

Results

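The ASK1, p38 and JNK kinase cascade was examined in SF-539, a human glioma cell line, as 10 genes chosen by name: MAP3K5, TRAF2, MAP2K3, MAP2K4, MAP2K6, MAP2K7, MAPK8, MAPK9, MAPK13 and MAPK14. All 10 were found among the 58735 genes of the table, and the rule that chose them used their names, with earlier results of these libraries already known. RNA was sequenced from cells carrying a lentiviral control shRNA (shControl) and from cells carrying an shRNA against FKBP9 (shFKBP9), a peptidyl-prolyl isomerase of the endoplasmic reticulum. Both arms were SF-539 cells of passages 15-18 infected with pGIPZ lentivirus, kept under puromycin selection as stable clones and grown in DMEM with 10% FBS. Each condition had 1 library, so no difference between the conditions has a replicate check, and no p-value is given. Which of the study's FKBP9 shRNAs was sequenced, and whether each line was 1 clone or a pool, is not given in the sources used here.

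ASK1, encoded by MAP3K5, is a MAP kinase kinase kinase that reduced thioredoxin holds inactive and that oxidative or endoplasmic reticulum stress can release. The adaptor TRAF2 links ASK1 to tumour necrosis factor receptors and to the stress sensor IRE1. ASK1 phosphorylates a tier of MAP kinase kinases: MKK3 and MKK6 (MAP2K3 and MAP2K6), which act on the p38 kinases, and MKK4 and MKK7 (MAP2K4 and MAP2K7), which act on the JNK kinases. p38 and JNK then phosphorylate transcription factors and further kinases that govern inflammation, growth arrest and cell death. The study followed this route by the levels and the phosphorylation of its proteins, and by inhibitors and siRNAs of p38 and ASK1. The values here are levels of mRNA and do not read kinase activity. In bulk RNA of a culture, fewer cells expressing a gene and less RNA per cell cannot be told apart.

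The libraries held 18116873 fragments in shControl and 17158514 in shFKBP9, a fragment being 1 sequenced pair assigned to a gene. Levels are in FPKM, that is, the fragments of a gene divided by its length and by the depth of the library, and 1 fragment on a gene of 1 kilobase was worth 0.0552 FPKM in shControl and 0.0582 in shFKBP9. Intervals are exact at 95% and cover counting error only. FKBP9 itself (chromosome 7, 32957404 to 33006931, hg38) had 4659 fragments (49.8 FPKM) in shControl and 415 (4.68 FPKM) in shFKBP9, so 9.39% of its level remained (8.48 to 10.4%). The label calls the cells epithelial glioma cells. Of 9 glioma and neural markers, 5 reached 1 FPKM, among them VIM (277 and 295 FPKM, in shControl and then shFKBP9) and PDGFRA (1.46 and 0.976). The defining glial genes were low or near 0: GFAP had 43 and 29 fragments, OLIG2 48 and 41, SOX2 4 and 7, and S100B 0 and 1. Of 5 epithelial markers only KRT8 reached 1 FPKM (1.28 and 1.09), and CDH1 had 0 and 1 fragments. None of 6 blood cell markers reached 1 FPKM, and PTPRC and CD3E were at 0 in both libraries.

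Of the 10 genes, 7 passed a minimum of 1 FPKM in either library, with 779 to 3020 fragments each over both libraries. Among these 7, MAP2K3 was higher in shFKBP9 by more than counting error, beside 17.2% of all genes that passed the minimum. MAP2K7 and MAPK9 were lower, beside 20.8%, and MAPK9 no longer stood out when the libraries were scaled by the median ratio of genes or at the 99% level. None of the 7 was over 25% higher, as 9.83% of all genes were, or over 20% lower, as 11.1% were, thresholds of equal size on the log2 scale. Among protein-coding genes with at least as many fragments these shares were only 3.89% and 4.07%, so a count of 0 among 7 lies near the background. MAP3K5 and MAPK13 lay under the minimum, and MAP2K6 had no fragment in either library.

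At the top of the cascade, MAP3K5 (ENSG00000197442, chromosome 6, 136557047 to 136792518, minus strand, 30 exons in the canonical transcript of GENCODE 44) had 51 fragments in shControl and 39 in shFKBP9. This was 0.531 FPKM (0.395 to 0.698) and 0.428 FPKM (0.305 to 0.586). Both values were low, and their intervals overlapped widely. The level in shFKBP9 was 80.6% of that in shControl with an interval from 51.8 to 125%, so neither a fall to the lower bound nor a rise to the upper could be told from no change at this depth. Among the 15407 protein-coding genes with at least 1 fragment, MAP3K5 stood above 28.1% in shControl and 26.6% in shFKBP9. TRAF2 (ENSG00000127191, chromosome 9, 136881912 to 136926607, plus strand, 11 exons) was more abundant, with 590 fragments (8.90 FPKM) in shControl and 511 (8.13 FPKM) in shFKBP9. Its log2 ratio of shFKBP9 over shControl was -0.13 (-0.30 to 0.04), an interval that held 0. All log2 ratios are given after adding 0.1 FPKM to both values, whereas their intervals, the percents of shControl and the ratios of a gene to another have nothing added, so for low genes a ratio need not lie at the middle of its interval.

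The MAP kinase kinases differed in direction. MAP2K3 (ENSG00000034152, chromosome 17, 21284672 to 21315240, plus strand, 12 exons), which encodes the p38 activator MKK3, had 618 fragments (9.02 FPKM) in shControl and 679 (10.5 FPKM) in shFKBP9. Its log2 ratio was 0.21 (0.05 to 0.37). MAP2K7 (ENSG00000076984, chromosome 19, 7903843 to 7914478, plus strand, 11 exons), whose product MKK7 acts on JNK, had 1138 fragments (12.2 FPKM) in shControl and 908 (10.3 FPKM) in shFKBP9. Its log2 ratio was -0.25 (-0.38 to -0.12). MAP2K7 was thus the more abundant of the pair in shControl, whereas in shFKBP9 their levels lay within counting error of each other. MAP2K4 (ENSG00000065559, chromosome 17, 12020824 to 12143830, plus strand, 11 exons) encodes MKK4, which can activate JNK and, in some settings, p38. It had 519 and 492 fragments, or 5.02 FPKM in both libraries, and its interval from -0.18 to 0.18 held 0. MAP2K6 (ENSG00000108984, chromosome 17, 69414698 to 69553861, plus strand, 12 exons), the other dedicated p38 activator, had 0 fragments in each. A count of 0 allows up to 3 fragments as a one-sided limit, which for this gene corresponds to 0.00995 FPKM in shControl and 0.0105 in shFKBP9. The upper ends of the two-sided exact intervals used for the other genes were 0.0122 and 0.0129 FPKM.

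Of the JNK genes, MAPK9 (JNK2; ENSG00000050748, chromosome 5, 180233143 to 180292099, minus strand, 12 exons) was the more abundant, with 1063 fragments (6.56 FPKM) in shControl and 912 (5.93 FPKM) in shFKBP9. Its log2 ratio was -0.14, and the upper end of the interval, -0.27 to -0.02, lay close to 0. This interval held 0 when the libraries were scaled by the median ratio of genes (-0.26 to 0.00) and at the 99% level (-0.31 to 0.02). MAPK8 (JNK1; ENSG00000107643, chromosome 10, 48306639 to 48439360, plus strand, 12 exons) had 391 fragments (2.23 FPKM) and 388 (2.34 FPKM), a log2 ratio of 0.06 (-0.14 to 0.27). Of the p38 genes, MAPK14 (p38 alpha, the best studied isoform; ENSG00000112062, chromosome 6, 36027677 to 36111236, plus strand, 12 exons) had the most fragments of the cascade, 1570 (12.6 FPKM) in shControl and 1450 (12.3 FPKM) in shFKBP9. Its log2 ratio of -0.04 had the narrowest interval of the 10 genes, -0.14 to 0.07, which places the level in shFKBP9 between 90.6 and 105% of that in shControl. MAPK13 (p38 delta; ENSG00000156711, chromosome 6, 36127809 to 36144524, plus strand, 12 exons) lies beside MAPK14 on chromosome 6 but had only 8 and 7 fragments (0.0614 and 0.0567 FPKM). With an interval of its log2 ratio from -1.81 to 1.54, a change of MAPK13 by 2-fold in either direction was not detectable at this depth.

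**Figure D1:**
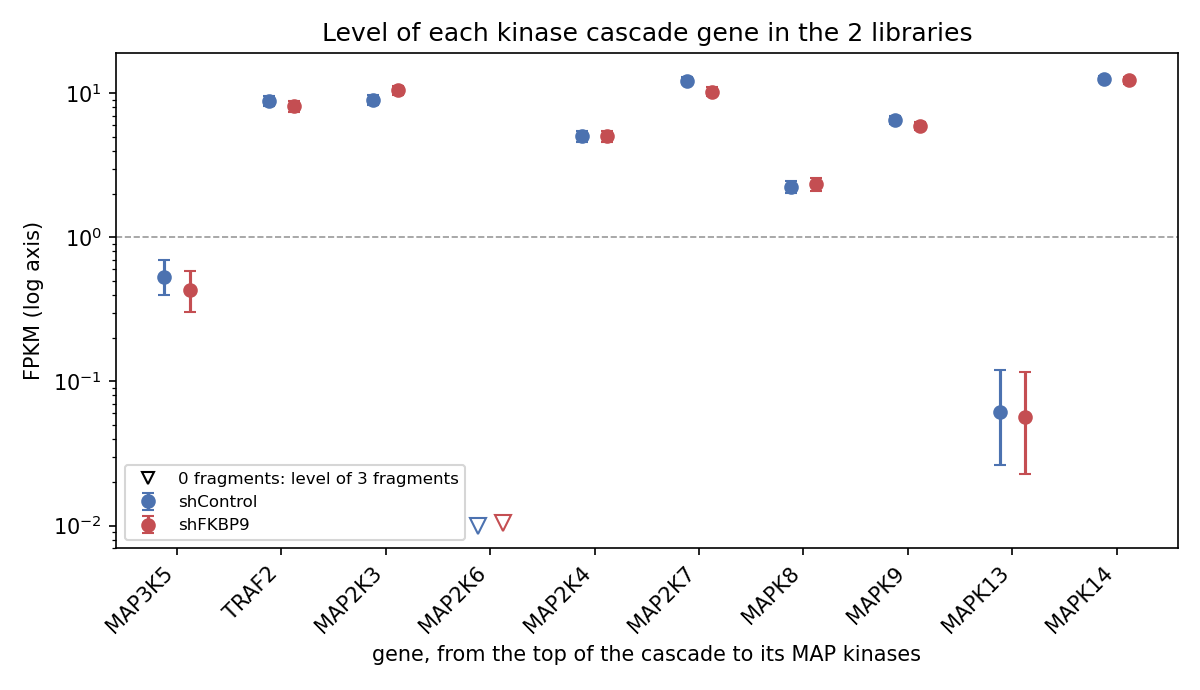
FPKM on a log axis of the 10 genes in shControl (blue) and shFKBP9 (red), 1 library each, with exact 95% Poisson intervals of the fragments. The 7 genes above the dashed line at 1 FPKM lie between 2.23 and 12.6 FPKM, MAP3K5 and MAPK13 lie below it, and the open triangles of MAP2K6 mark the level that 0 fragments allow.

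The order of the levels was the same in both libraries apart from MAP2K3, which stood above MAP2K7 in shFKBP9 only. In shControl it ran from MAPK14 (12.02 to 13.28 FPKM) and MAP2K7 (11.5 to 12.9), whose intervals overlapped, to MAP2K3 (8.32 to 9.76) and TRAF2 (8.19 to 9.64), which also overlapped. MAPK9 (6.17 to 6.96), MAP2K4 (4.59 to 5.47) and MAPK8 (2.02 to 2.46) followed, each apart from its neighbours. In shFKBP9 the overlapping neighbours were MAP2K3 (9.68 to 11.3 FPKM) and MAP2K7 (9.62 to 11.0), between MAPK14 (11.7 to 13.0) above and TRAF2 (7.44 to 8.86) below. FPKM divides by the summed length of a gene's annotated exons, so a gene that uses a short isoform is placed lower in such an order in both libraries alike.

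Set against all genes, the counts for the cascade lay near the background. None of its 7 genes past the minimum passed 2-fold, where 2.02% of 12741 genes were higher and 2.19% lower in shFKBP9. None was over 25% higher, as 9.83% of these genes were, or over 20% lower, as 11.1% were. Counting intervals left out 0 for 1 gene on the higher side (MAP2K3), beside 17.2% of all genes, and for 2 on the lower side (MAP2K7 and MAPK9), beside 20.8%. Among the 7071 protein-coding genes with at least 779 fragments, a background chosen after the data were seen that shares the lowest depth of the 7 genes but has no upper limit, 3.89% were over 25% higher and 4.07% over 20% lower, and intervals left out 0 for 23% higher and 28.4% lower. The median log2 ratio was -0.04 over the 7 genes and -0.02 over the 12741, whose values ran from -0.53 at the 5th percentile to 0.51 at the 95th. Among the 7071 deeper genes that range was -0.30 to 0.29, and all 7 lay inside it, MAP2K7 nearest to its lower end and MAP2K3 nearest to its upper end.

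**Figure D2:**
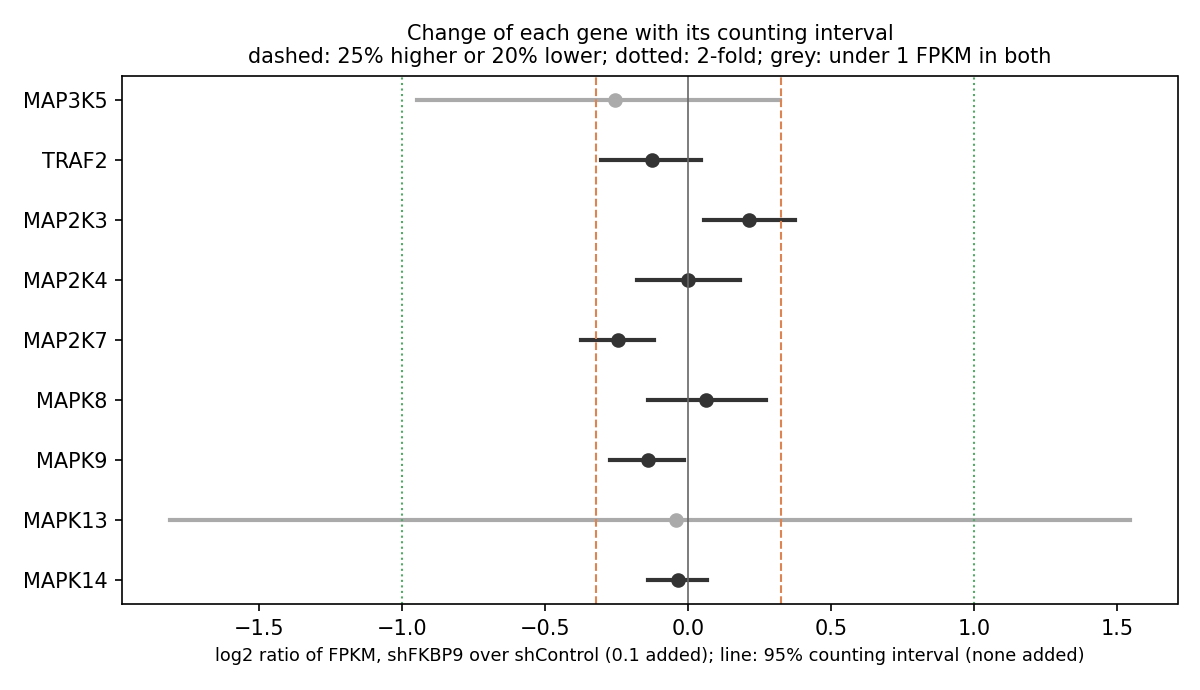
Log2 ratio of FPKM, shFKBP9 over shControl with 0.1 added (points), and exact 95% counting intervals with nothing added (lines) for the 9 genes with a fragment. Every point lies within the dashed lines at 25% higher and 20% lower, the intervals of MAP2K3, MAP2K7 and MAPK9 leave out 0, and those of MAP3K5 and MAPK13 (grey, under 1 FPKM) are the widest.

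A ratio of a gene to another within a library does not depend on how the library was scaled. The ratio of MAP2K3 to MAP2K7 was 0.739 in shControl and 1.02 in shFKBP9 by FPKM, a change of 1.38-fold (1.19 to 1.59). The pair was chosen after its values were seen, as the genes at opposite ends of the cascade's log2 ratios, so this is a description. MAP2K4 relative to MAP2K7, the pair that acts on JNK, was higher in shFKBP9 by 1.19-fold (1.02 to 1.39). MAPK8 relative to MAPK9 changed by 1.16-fold with an interval that held 1 (0.976 to 1.37). MAPK8 supplied 25.4% of the pair's summed FPKM in shControl (23.2 to 27.7%) and 28.3% in shFKBP9 (25.9 to 30.7%). MAP2K3 relative to MAP2K4, also added after the values were seen, changed by 1.16-fold (0.980 to 1.37). MAPK13 relative to MAPK14 gave 0.947 (0.292 to 2.998), which the few fragments of MAPK13 leave wide.

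The closest relatives of the 10 genes were added to show which gene supplied each tier. In the ASK family, nearly all mRNA came from MAP3K6, which encodes ASK2, a kinase that forms complexes with ASK1. MAP3K6 had 1512 fragments (16.9 FPKM) in shControl and 1242 (14.6 FPKM) in shFKBP9, which was 31.8-fold and 34.1-fold the FPKM of MAP3K5. Its log2 ratio was -0.21 (-0.32 to -0.10). MAP3K15 (ASK3) had 5 and 0 fragments, and MAP3K5 made up 3.04% of the family's summed FPKM in shControl and 2.85% in shFKBP9. Among the MAP kinase kinases, MAP2K3 went from 34.4 to 40.6% of the tier, MAP2K7 from 46.5 to 39.9% and MAP2K4 from 19.1 to 19.5%.

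Within the JNK tier MAPK9 supplied 74.3% and then 71.7%, and MAPK8 25.3% and then 28.2%. MAPK10, the JNK3 gene known from neurons, had 24 fragments in shControl and 4 in shFKBP9, at 0.0311 and 0.00546 FPKM. Its counting interval, with nothing added, ran from -4.50 to -0.97 on the log2 scale and left out 0, but the gene lay far under the minimum in both libraries. Within the p38 tier MAPK14 supplied 63.2% and then 62.5%. MAPK11 (p38 beta), at 4.83 and 5.07 FPKM, supplied 24.1% and 25.7%, and MAPK12 (p38 gamma), at 2.48 and 2.26 FPKM, supplied 12.4% and 11.5%. By fragments MAPK12 had more, 423 and 366 against 235 and 234 for MAPK11. Their order by FPKM thus rests on the gene lengths used, 9424 bases for MAPK12 and 2688 for MAPK11. Of the 5 relatives, 3 passed the minimum, and MAP3K6 was the only one of these whose interval left out 0, on the lower side, beside 20.8% of all genes.

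Shared sequence was checked for the 10 genes. For 8 of them no window of 100 bases in the GENCODE 44 transcripts occurred in any other gene, a relative among the 10 included. MAP2K4 shared 0.51% of its windows with its pseudogene MAP2K4P1, which had 0 fragments in each library. AC243725.1, a chromosome 17 pseudogene that the table describes as MKK3, also had 0 in each. MAP2K7 shared 4.41% of its windows, and 8.51% of its exonic bases, with a long non-coding RNA gene on the opposite strand (ENSG00000268149). That gene had 0 fragments in each library, and without strand its reads and those of MAP2K7 cannot be told apart in the shared stretch.

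Further up, 18 other kinases and adaptors that can feed p38 and JNK were listed, of which 17 passed the minimum. Over 25% higher were 0 and over 20% lower was 1, beside 9.83% and 11.1% of all genes. Counting intervals left out 0 for 2 higher and 5 lower, beside 17.2% and 20.8% of all genes and 23% and 28.4% of the deeper protein-coding genes, and the median log2 ratio was 0.01. The lower gene was MAP3K20 (ZAK), a kinase that senses stalled ribosomes, with 3335 fragments (13.3 FPKM) in shControl and 2144 (9.05 FPKM) in shFKBP9, a log2 ratio of -0.56 (-0.64 to -0.48). TAB2, an adaptor of the kinase TAK1, was the most abundant at 23.7 and 24.3 FPKM. MAP3K12 (DLK), which acts on JNK in stressed neurons and was measured as a protein by the study, was at 5.27 and 4.46 FPKM, a log2 ratio of -0.24 (-0.40 to -0.08).

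Of 21 partners and regulators of ASK1 in the table, 19 passed the minimum, with 0 over 25% higher and 1 over 20% lower (all genes 9.83% and 11.1%). Intervals left out 0 for 2 higher and 8 lower of the 19, beside 17.2% and 20.8% of all genes and 23% and 28.4% of the deeper ones, and the median was -0.07. PPP6C, the catalytic subunit of protein phosphatase 6, had 1060 fragments (13.2 FPKM) in shControl and 617 (8.09 FPKM) in shFKBP9, a log2 ratio of -0.70 (-0.85 to -0.56). PRDX1, a peroxiredoxin that reduces hydrogen peroxide, was the most abundant at 272 and 245 FPKM (-0.15, -0.20 to -0.10). ERN1, which encodes IRE1, stayed under the minimum at 0.717 and 0.804 FPKM, and its interval from -0.18 to 0.51 held 0. Of 9 scaffolds of JNK and p38, 8 passed the minimum and none passed either of these thresholds with 0.1 added to FPKM. Without the addition MAPK8IP1, at 79.7% of its level in shControl, and ARRB1, at 79.6%, lay just past the lower one. ARRB1 passed the minimum only through shControl, where it was higher, and its log2 interval from -0.77 to 0.10 held 0. Their intervals left out 0 for 1 higher and 3 lower of the 8, beside 17.2% and 20.8% of all genes, with a median of -0.15, and the most abundant, the actin crosslinker FLNA, was at 447 and 411 FPKM.

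Below p38, 15 of 17 kinases and substrates passed the minimum, with 1 over 25% higher and 0 over 20% lower (all genes 9.83% and 11.1%), although EEF2K, at 79.9% of its level in shControl without the addition of 0.1, lay at the threshold. Intervals left out 0 for 4 higher and 5 lower of the 15, beside 17.2% and 20.8% of all genes and 23% and 28.4% of the deeper ones, and the median was -0.07. The higher gene was MEF2A, a transcription factor that p38 phosphorylates, at 5.26 and 6.80 FPKM (0.36, 0.22 to 0.52). HSPB1, the small heat shock protein phosphorylated through the p38 route, was the most abundant at 490 and 524 FPKM (0.09, 0.06 to 0.13). All 10 factors below JNK passed the minimum, with 1 over 25% higher and 0 over 20% lower. Intervals left out 0 for 4 higher and 1 lower of the 10, beside 17.2% and 20.8% of all genes, and the median was 0.00. BMF, a pro-apoptotic BH3-only protein, was at 1.12 and 1.51 FPKM (0.40, 0.06 to 0.81), and JUN, the AP-1 subunit after which JNK is named, was the most abundant at 133 and 138 FPKM.

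Of 13 phosphatases that switch p38 and JNK off, 11 passed the minimum, with 0 over 25% higher and 1 over 20% lower (all genes 9.83% and 11.1%). Intervals left out 0 for 2 higher and 1 lower of the 11, beside 17.2% and 20.8% of all genes, and the median was -0.03. PTPRR, a receptor-type tyrosine phosphatase of MAP kinases, had 131 and 88 fragments (1.41 and 0.997 FPKM), a log2 ratio of -0.46 (-0.90 to -0.10). It passed the minimum only through shControl, where it was high. DUSP1, the most abundant, was at 36.2 and 35.5 FPKM. In the neighbouring ERK and ERK5 pathways 10 of 14 kinases passed the minimum and none passed either threshold. Intervals left out 0 for 1 higher and 2 lower of the 10, beside 17.2% and 20.8% of all genes, with a median of -0.04, and the most abundant, MAP2K2, was at 46.1 and 44.3 FPKM.

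A last list held genes whose mRNA p38 or JNK signalling is known to induce or stabilise, and it was written with values of some of them, such as IL6, already known. Of 14 such stress response genes, 13 passed the minimum, with 6 over 25% higher, beside 9.83% of all genes, and 2 over 20% lower, beside 11.1%. Intervals left out 0 for 9 higher and 2 lower of the 13, beside 17.2% and 20.8% of all genes and 23% and 28.4% of the deeper ones, and the median log2 ratio was 0.20. IL6, an inflammatory cytokine and the only one of the 13 past 2-fold, had 15 fragments (0.4004 FPKM) in shControl and 67 (1.89 FPKM) in shFKBP9, a log2 ratio of 1.99 (1.41 to 3.15). It passed the minimum only through shFKBP9, where it was high, so its place among the counted genes is partly set by the minimum. PTGS2, the inducible cyclooxygenase, was at 1.95 and 2.91 FPKM (0.55, 0.30 to 0.86). The chemokine CXCL8 was at 37.5 and 52.0 FPKM (0.47, 0.38 to 0.57), and GADD45B, a growth arrest gene whose product binds MKK7 and MEKK4, at 10.3 and 14.2 FPKM (0.47, 0.28 to 0.66). CCND1, the cyclin of the early cell cycle, was at 49.99 and 67.7 FPKM (0.44, 0.38 to 0.49). For its protein, cyclin D1, the study reported the opposite direction, a fall in SF-539 with stable FKBP9 knockdown. Why mRNA and protein differed was not tested.

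The 2 genes on the lower side were FOS and EGR1, which encode transcription factors, as does ATF3, the remaining gene over 25% higher, at 2.87 and 3.75 FPKM (0.37, 0.12 to 0.65). FOS had 66 and 40 fragments (1.13 and 0.720 FPKM), a log2 ratio of -0.58 with an interval whose upper end was -0.06, and passed the minimum only through shControl, where it was high. EGR1 had 673 and 482 fragments (11.8 and 8.95 FPKM), a log2 ratio of -0.40 (-0.58 to -0.23). JUN, at 133 and 138 FPKM, was again among the most abundant of the list. These genes also answer to pathways other than p38 and JNK, ELK1, ATF2, JUN and DUSP1 each stand in 2 of the lists, and the lists were written with earlier results of these libraries known, so their counts are descriptions.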

How the data were processed

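RNA of shControl and shFKBP9 SF-539 cells was isolated with TRIzol and made into libraries with the NEBNext Ultra kit, which was not stated to keep strand. The submitters' processing notes name HISAT2 2.0.5, featureCounts 1.5.0-p3, edgeR and hg38. The authors deposited FPKM per gene, scaled by gene length and library size, with 1 column per library, and 0 further columns of values were left unused. Multiplied by the gene length, 100% of values were within 0.01 of a whole multiple of 1 step, which gave the fragments; the steps imply library sizes 0.999428 and 1.00057 times the fragment sums. Strand, the treatment of reads with several matches and the annotation release are not given in the sources used here.

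Log2 ratios were computed after adding 0.1 to FPKM. Exact Poisson intervals were computed for levels, exact Clopper-Pearson intervals for ratios of fragments and shares, and exact conditional intervals for ratios of 2 genes within a library, all at 95%, without addition and covering counting error only. Genes were counted as past 2-fold, over 25% higher or over 20% lower only with at least 1 FPKM in either library. With 1 library per condition there was no test between conditions. The 10 genes and the lists were chosen with earlier results of these data known. Named were the 10 genes, FKBP9, their relatives and pseudogenes, in every other list at most 4 genes per direction over 25% higher or 20% lower whose interval left out 0 together with the most abundant gene, and MAP3K12, HSPB1, ERN1 and CCND1, which the study measured as proteins. For HSPB1 and ERN1 the study reported the phosphorylated form of the protein. MAPK8IP1, ARRB1, EEF2K and ATF3 were named after their values were seen. Cell type markers were used to check the label. Of the lists, 1 gene, an antisense RNA of MAP3K5, was not analysed here. Exon numbers and shared windows of 100 bases came from GENCODE 44, and positions from the deposited table; 5 of the 10 genes had the same bounds in both. The recovery of fragments and the intervals were tested on simulated counts that held counting error only. Variation between libraries was thus not covered by that check. Alternatives were other additions to FPKM, scaling by the median ratio, TPM, other minimums, fragments of pseudogenes added, and 99% intervals. Calculations ran in Python 3.11.15 (scipy 1.17.1, pandas 2.3.3, numpy 2.4.6), and plots were drawn with matplotlib 3.10.9.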

Additional observations from a re-analysis of the deposited data

How the results depend on the processing

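No gene of the cascade was over 25% higher, over 20% lower or past 2-fold under any addition to FPKM, scaling or minimum tried, and the median log2 ratio of its genes stayed between -0.06 and -0.02. The number of genes whose interval lay below 0 was 2 as reported, beside 20.8% of all genes. It was 1 with scaling by the median ratio of genes, which moves each interval by 0.017 on the log2 scale, beside 18.5%. At the 99% level it was 1, beside 14.8%. Under that scaling and at 99% MAP2K7 remained and MAPK9 did not. MAP2K3 remained on the higher side under every scaling and at 99%, where its interval began at 0.00388. Of all genes, 19.3% lay on the higher side by the median ratio, 15.0% by TPM and 12.3% at 99%. The log2 ratio of MAP2K4 was -0.02 by TPM and 0.02 by the median ratio, with an interval that held 0 in both. FKBP9 was at -3.16 with 1 added to FPKM. Adding the fragments of pseudogenes changed no value, since they held none. Shares of all genes past a threshold moved with the addition and with the minimum: without a minimum, 20.4% were over 25% higher and 22.1% over 20% lower, and 7.36% and 7.25% were past 2-fold higher and lower. The shares past 2-fold were 0.343% and 0.352% with 1 FPKM in both libraries, and 1.08% and 1.20% with 1 added to FPKM. No paired analysis was possible because each condition had 1 library. Depth limits MAP3K5, whose interval reaches down to 51.8% of the level in shControl, and MAPK13, whose interval passes 2-fold in both directions.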
